A study of Mus musculus with 5 samples.

Results

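The genes described here are 10 actomyosin genes associated with smooth muscle, namely Acta2, Actg2, Myl9, Cnn1, Cnn2, Tagln, Tagln2, Tpm1, Tpm2 and the transcription factor gene Srf. They were chosen by their signals in these data, several being high in parental Neuro2A cells, a mouse neuroblastoma line, against stable lines made from it. Every probe set whose annotation gave exactly 1 of these symbols was taken, which gave 21 of the 45037 probe sets that are not array controls, and 10 of the 18193 genes with a probe set of their own. Total RNA of 5 Neuro2A lines was measured, each on its own Affymetrix mouse array. The lines were the untransfected parental cells, a line carrying an empty vector, a line carrying a knockdown vector against EGFP, and 2 lines carrying different vectors against KDM7 (the histone demethylase gene Kdm7a). The empty vector and EGFP knockdown lines are called the vector lines (n = 2) and the KDM7 lines the knockdown lines (n = 2), and these 4 together are the stable lines. No further treatment or time point is given, and the labels do not say whether a stable line was a single clone, which selection it went through or whether the lines were cultured side by side. With 1 parental array, transfection, selection, time in culture and the array itself cannot be told apart as sources of a difference between the parental and the stable lines.

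Smooth muscle cells shorten when myosin pulls on thin filaments of actin, and the myosin is switched on by phosphorylation of its regulatory light chain. Tropomyosins lie along the actin filament, and calponins and transgelins bind to it and modulate its use. Many of these genes are transcribed under serum response factor (SRF), which binds a short element called the CArG box and works with myocardin or with the actin-regulated cofactors Mrtfa and Mrtfb. The same gene set is also used outside muscle, in cells that spread and form stress fibres.

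The parental array differed from the other arrays well beyond these genes. Of 22519 probe sets that passed a brightness filter, 127 were at least 2-fold higher in the parental line than in every other line, against 10 to 20 for each stable line. At least 2-fold below every other line were 358 in the parental line and 64 to 128 in each stable line. Across the same probe sets the log2 signals of the parental array correlated with those of the stable lines at a Pearson r of 0.964 to 0.968, while the stable lines correlated among themselves at 0.976 to 0.983. Probe sets are not independent replicates, and these values only describe the arrays. The filter kept probe sets whose mean log2 signal over the 5 arrays was at or above the median, a signal of 40.5 in the arbitrary units of the array. No detection calls were used, so signals under that level were not shown to be above background and folds against them are uncertain in size. Of 18 measured neuroblastoma and sympathetic neuron markers 15 passed the filter by their brightest probe set, as did 10867 of all 18193 genes. Among the bright ones, Hand2 lay at 10162 to 13084, Phox2a at 2444 to 3789 and Stmn2 at 13416 to 14541 over the 5 lines. Th, Nefl and Nefm did not pass, at 22.1 to 68.6, 4.94 to 18.2 and 1.11 to 9.09.

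Promoter sequence is shown for the members in which a CArG box or a close variant was found, because SRF is itself a member and the highest members were high in the same line. RefSeq promoters of build GRCm38.p6 matched 8 of the 10 members, all but Actg2 and Tagln. Each window ran from 250 bases before the annotated transcription start to 50 after it. Capitals mark the CArG box, which is CC, a core of 6 bases that are each A or T, and GG, or a variant with 1 G or C in that core. Both patterns read alike on the 2 strands, and the first is contained in the second. The bases before the start are printed 5′ to 3′, for Myl9 from chr2:156775214-156775463 (plus strand), Acta2 from chr19:34255374-34255623 (minus strand), Cnn2 from chr10:79988350-79988599 (plus strand) and Srf from chr17:46556163-46556412 (minus strand).
Myl9: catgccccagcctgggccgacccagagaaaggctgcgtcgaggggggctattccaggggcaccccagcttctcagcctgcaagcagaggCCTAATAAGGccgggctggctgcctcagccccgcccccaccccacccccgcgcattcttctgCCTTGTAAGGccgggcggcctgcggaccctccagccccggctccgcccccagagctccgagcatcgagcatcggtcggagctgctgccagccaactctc
Acta2: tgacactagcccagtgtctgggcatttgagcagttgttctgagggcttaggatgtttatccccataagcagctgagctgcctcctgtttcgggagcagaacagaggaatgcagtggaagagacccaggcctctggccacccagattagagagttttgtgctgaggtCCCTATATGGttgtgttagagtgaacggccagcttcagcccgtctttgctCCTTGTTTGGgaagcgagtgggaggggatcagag
Cnn2: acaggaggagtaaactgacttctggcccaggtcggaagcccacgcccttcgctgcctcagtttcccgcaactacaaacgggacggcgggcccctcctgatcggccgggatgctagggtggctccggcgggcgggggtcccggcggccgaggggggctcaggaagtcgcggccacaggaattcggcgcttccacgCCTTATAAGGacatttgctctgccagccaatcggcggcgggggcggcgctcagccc
Srf: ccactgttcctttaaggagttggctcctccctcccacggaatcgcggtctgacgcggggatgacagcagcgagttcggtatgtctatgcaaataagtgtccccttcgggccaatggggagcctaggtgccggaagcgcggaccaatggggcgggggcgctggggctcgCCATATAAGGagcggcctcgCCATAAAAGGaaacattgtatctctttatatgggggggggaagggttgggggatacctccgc
An exact CArG box was found in 3 of the 8 members. Myl9 had 1 from 161 to 152 bases before the start, Cnn2 had 1 from 56 to 47 bases before it, and Srf had 2, from 82 to 73 and from 62 to 53. Of 32851 promoter windows of this length in the table, 1.63% held at least 1 exact box and 0.0183% held 2 or more. Acta2 had no exact box but 2 variants, from 84 to 75 and from 34 to 25 bases before the start, and Myl9 had 1 variant besides its exact box, from 99 to 90. At least 1 box of either kind was present in 9.98% of all windows and at least 2 in 0.822%. Cnn1, Tagln2, Tpm1 and Tpm2 had neither in this window, which says only that these letters are not there. A match in the sequence is not a measured binding site.

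**Figure D1:**
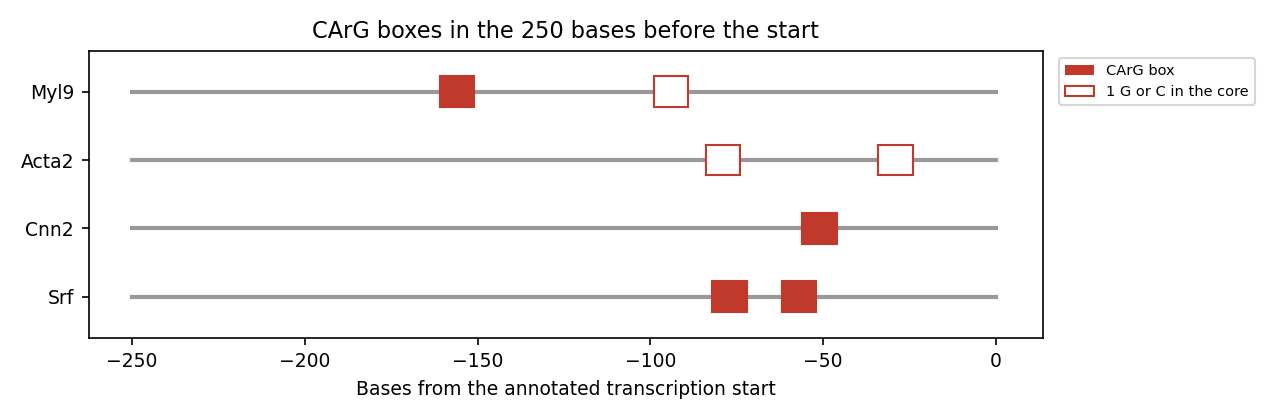
Position of CArG boxes in the 250 bases before the annotated transcription start of Myl9, Acta2, Cnn2 and Srf (x axis, bases from the start). Filled boxes are exact and open boxes have 1 G or C in the core. Srf held 2 exact boxes, Myl9 1 exact and 1 variant, Cnn2 1 exact and Acta2 2 variants.

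In the parental cells the signals of the smooth muscle actins and of the myosin light chain were many times those of every stable line, those of calponin 2 and of most tropomyosin probe sets were 1.64-fold to 2.37-fold that of the highest stable line, and transgelin 2 was not higher. The usual smooth muscle markers Cnn1 and Tagln, each measured by 1 probe set only, gave dim signals in all 5 lines. These parental levels chose the genes, so they are given as a description, with no test. Of the 21 probe sets 15 passed the brightness filter, covering 8 genes, and the 6 others were those of Cnn1 and Tagln, 2 of Acta2, 1 of Tagln2 and 1 of Tpm1. The parental line was highest for 11 of the 15, where it was highest for 23.0% of all probe sets that passed, and at least 2-fold above every stable line for 7 of the 15, in 6 genes, against 0.564% of all. It was lowest for 2 of the 15, against 31.5% of all, and at least 2-fold below every stable line for 0, against 1.59%. The members were picked for this contrast, and nothing is read from these shares.

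**Figure D2:**
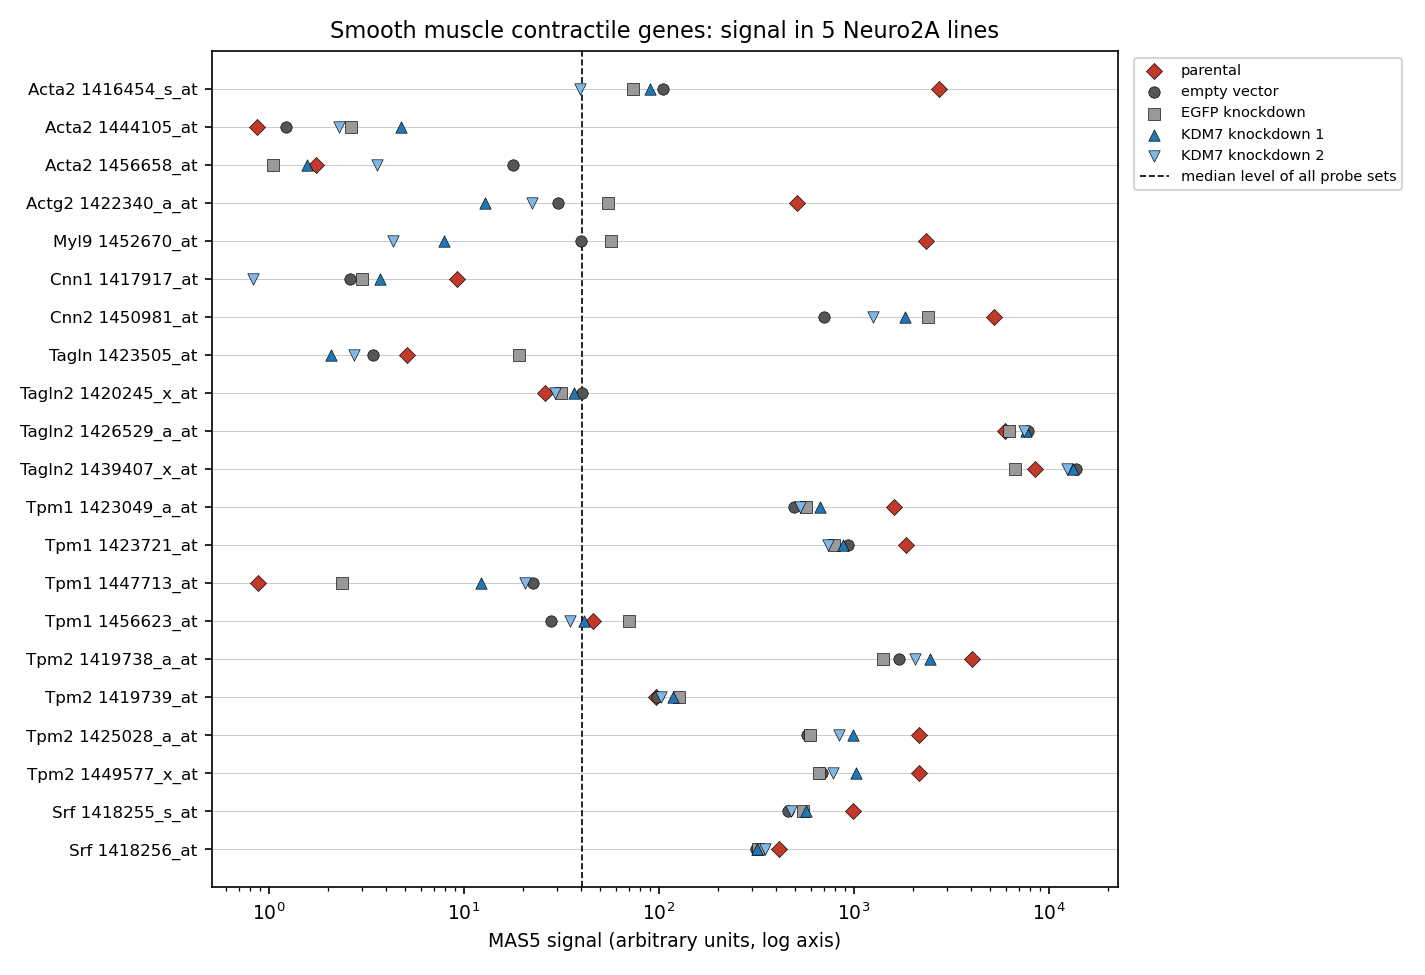
Signal of all 21 probe sets (rows, gene and probe set) in each of the 5 lines on a log axis, in arbitrary units of the array. Each symbol is 1 array, and the dashed line is the median level of 40.5. The parental symbols of Acta2 1416454_s_at, Actg2 and Myl9 stand apart to the right, while Cnn1 and Tagln lie left of the line in every array.

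Myl9 encodes the regulatory light chain of smooth muscle and non-muscle myosin. Its 1 probe set, 1452670_at, gave a signal of 2327 in the parental line, 40.1 with the empty vector, 56.9 with the EGFP vector, and 7.88 and 4.33 in knockdown lines 1 and 2. The parental line alone was bright, and 3 of the 4 stable lines lay under the level of 40.5. Its parental signal was 40.9-fold that of the highest stable line, or 26.5-fold after adding an offset of 32 to every signal, which damps dim values. This was the largest such excess among the 22519 probe sets.

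Acta2 encodes alpha smooth muscle actin, the thin filament actin of vascular smooth muscle and myofibroblasts. Probe set 1416454_s_at had a signal of 2733 in the parental line, 105 and 73.3 in the empty vector and EGFP lines, and 89.6 and 39.3 in knockdown lines 1 and 2. The parental signal was 26.1-fold that of the highest stable line and 20.3-fold with the offset, second among all probe sets. The other 2 Acta2 probe sets were dim throughout, at 0.865 to 4.78 for 1444105_at and 1.05 to 17.9 for 1456658_at, so the high level rests on 1 probe set. By the array maker's naming, the ending _s_at marks probes shared by transcripts of more than 1 gene. Actin genes are close in sequence, and this signal therefore cannot be given to Acta2 alone.

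Actg2 encodes gamma smooth muscle actin, the actin of visceral smooth muscle. Probe set 1422340_a_at gave 508 in the parental line, 30.2 and 55.1 in the empty vector and EGFP lines, and 12.8 and 22.3 in knockdown lines 1 and 2. Only the parental line was clearly bright. The excess over the highest stable line was 9.23-fold, or 6.21-fold with the offset, the eighth largest of all probe sets. Cross-hybridisation between the 2 smooth muscle actins was not tested.

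Cnn2 and Cnn1 encode calponins, which bind actin. Calponin 2 is widespread in non-muscle cells, whereas calponin 1 is a marker of differentiated smooth muscle. Cnn2 1450981_at had a signal of 5213 in the parental line, 705 with the empty vector, 2384 with the EGFP vector, and 1818 and 1257 in knockdown lines 1 and 2. The parental line was 2.19-fold above the EGFP line, the next highest. The 4 stable lines were bright but spread over 3.38-fold, from the empty vector line to the EGFP line. Cnn1 1417917_at had only 9.23 in the parental line and 0.833 to 3.73 in the stable lines. That level was not shown to be above background, and no order is read from it.

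Tagln and Tagln2 encode transgelins, small actin-binding proteins related to calponin. Transgelin (SM22) is an early marker of smooth muscle, and transgelin 2 is found in many cell types. Tagln 1423505_at was dim, with a signal of 5.09 in the parental line, 3.41 and 19.1 in the empty vector and EGFP lines, and 2.09 and 2.74 in the knockdown lines. Tagln2 was among the brightest members and was not high in the parental line. By 1426529_a_at it had 5924 in the parental line, 7762 and 6211 in the empty vector and EGFP lines, and 7630.0 and 7453 in the knockdown lines. By 1439407_x_at, whose ending marks probes that may bind other transcripts, it had 8461, 13810.4, 6701, 13223 and 12337 in the same order. The parental and EGFP lines were the 2 lower lines by both probe sets, and the parental values lay within or just below the range of the stable lines. The third probe set, 1420245_x_at, had 26.2 in the parental line and 29.3 to 40.5 in the stable lines.

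Tpm1 and Tpm2 encode tropomyosins, coiled coils that run along actin filaments, with forms in both muscle and other cells. Tpm1 1423049_a_at had a signal of 1597 in the parental cells, against 493, 570.15, 673 and 526 in the empty vector line, the EGFP line and knockdown lines 1 and 2. Its second bright probe set, 1423721_at, had 1853 and then 937, 791, 879.7 and 739. The parental line was 2.37-fold and 1.98-fold above the highest stable line by these probe sets, and the stable lines lay within 1.36-fold and 1.27-fold of each other. The dimmer 1456623_at had 45.9 in the parental line and up to 70.5 in the EGFP line. The dimmest, 1447713_at, had 0.876 in the parental line and 2.38 to 22.6 in the stable lines.

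Tpm2 was high in the parental line by 3 of its 4 probe sets. Probe set 1419738_a_at gave 4004 in the parental cells, 1705 and 1404 with the vectors and 2447 and 2050.02 in the knockdown lines. By 1425028_a_at the values were 2163, then 574 and 594, then 994 and 833, and by 1449577_x_at 2149, then 682 and 658, then 1019 and 785. The excess of the parental line over the highest stable line was 1.64-fold, 2.18-fold and 2.11-fold. The fourth probe set, 1419739_at, showed no such pattern, with 96.3 in the parental line and 97.8 to 127 in the stable lines. Probe sets of 1 gene share their target, or part of it, and are not separate evidence.

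Srf encodes the transcription factor that binds the CArG box. Probe set 1418255_s_at had a signal of 985 in the parental line, 457 and 546 in the empty vector and EGFP lines, and 569 and 476 in knockdown lines 1 and 2. With 1418256_at the values were 414, then 314 and 323, then 319.7 and 348. The parental line was highest by both, 1.73-fold and 1.19-fold above the next line. The stable lines lay within 1.25-fold and 1.11-fold of each other. The larger excess is that of the _s_at probe set, whose probes may be shared with other transcripts.

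**Figure D3:**
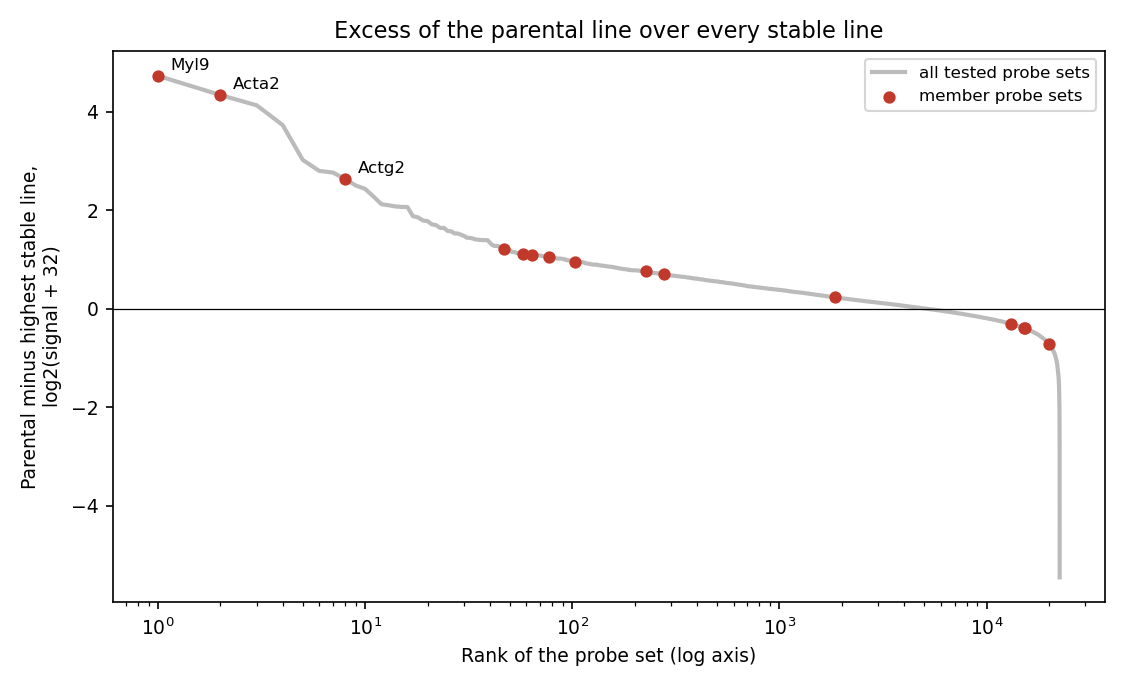
Parental line minus the highest stable line in log2(signal + 32) (y axis) for the 22519 probe sets that passed the filter, by rank on a log axis. The grey line is all probe sets and the red points are the 15 member probe sets. Myl9, Acta2 and Actg2 ranked 1, 2 and 8, and the 4 points below 0 are 2 probe sets of Tagln2, 1 of Tpm1 and 1 of Tpm2.

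Other genes had a parental excess of similar size. Ranked by the smallest gap in log2(signal + 32) between the parental line and any stable line, over 5 lines, the first gene outside the 10 was Tspan2, a tetraspanin, with a signal of 1048 in the parental and 15.0 to 29.7 in the stable lines, 17.5-fold with the offset. Timp2, an inhibitor of matrix metalloproteinases, followed at 1146 against 72.0 to 113. Next were Glipr1 (6.96-fold with the offset), Magea5 (6.80-fold), Capn6, a calpain family member (5.67-fold), Ptgfrn (5.40-fold), Emp1, a membrane protein (4.35-fold), Shisa3 (3.62-fold), Akain1 (3.43-fold) and Synpo2 (3.28-fold). Of these, Synpo2, an actin-bundling protein of muscle Z-discs, belongs to a list described further on. This measure gives likeness in 1 respect only, a high parental line, and says nothing of shared control.

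The pattern was uneven in the rest of the contractile apparatus. Of 33 measured other actomyosin and thin filament genes 23 passed the filter by their brightest probe set, of which 12 were highest in the parental line, where 24.6% of all genes were. The parental line was at least 2-fold above every stable line for 1 of the 23, where it was so for 0.663% of the 10867 genes that passed. That gene was Actc1, cardiac alpha actin, with a signal of 92.9 in the parental line and 27.0 to 40.2 in the stable lines. Tpm4, another tropomyosin, had 9729 in the parental line and 4279 to 6165 in the stable lines, and Cald1, the actin-binding caldesmon, had 5173 and 2028 to 3281. Both were highest in the parental line but less than 2-fold above the next line. Smtnl2, a smoothelin-like gene, went the other way at 5.14 against 13.2 to 65.3, all but 2 of these values under the filter level. The cytoplasmic actins Actb and Actg1 overlapped between the lines, at 25121 and 31519 in the parental line and 20823 to 26536 and 30715 to 34479 in the stable lines. Myh11, the smooth muscle myosin heavy chain, and Lmod1, a leiomodin of smooth muscle, were dim in every line, at 2.996 to 24.01 and 2.21 to 10.6.

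Several genes of adhesion sites, Z-bodies and intermediate filaments were high in the parental line. All 32 were measured and 25 passed. Of the 25, 17 were highest in the parental line, where 24.6% of all genes were. At least 2-fold above every stable line were 4, where 0.663% of all genes were. These 4 were Synpo2, at 479 against 27.4 to 124, Pdlim3, a PDZ and LIM domain protein of actin anchoring sites, at 2824 against 467 to 928, Flna, the actin crosslinker filamin A, at 3392 against 817 to 1154, and Pdlim7 at 3483 against 1141 to 1493. In the other direction, 3 of the 25 were lowest in the parental line, where 3376 of all 10867 genes were. These were Flnc, filamin C, at 279 against 512 to 779, Nexn, the actin-binding nexilin, at 135 against 255 to 308, and the intermediate filament gene Synm at 355 against 459 to 759. The median difference of the list, parental line minus the mean of the stable lines in log2(signal + 32), was 0.51. It was 0.19 for the other actomyosin genes, -0.04 for all genes and 1.496 for the 8 members that passed, which were chosen for it. Since this list was written with earlier results of these data known, it is no independent support.

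The SRF cofactors and immediate early SRF targets examined went in both directions. Of 13 cofactors and partners that passed, 4 were highest and 1 was lowest in the parental line. Of all 10867 genes, 2670 were highest and 3376 lowest there. In the list 0 were at least 2-fold above every stable line, and the median difference was 0.0064. Only 0.663% of all genes were so, and lists this small would seldom hold one, so nothing is read from the 0. Mrtfa had 410.5 in the parental and 379.8 to 429.6 in the stable lines, and Mrtfb had 787 and 654 to 998, both overlapping. Myocd, the cofactor of smooth and cardiac muscle, was dim in every line at 1.54 to 15.2. The largest differences in this list were those of Hopx, a small homeodomain protein, at 95.2 in the parental line against 151 to 289, and of the Krüppel-like factor genes Klf4 (786 against 344 to 656) and Klf5 (554 against 303 to 545), followed by Elk1 (92.1 against 53.3 to 75.7). Among 9 immediate early SRF targets that passed, 1 was highest and 3 were lowest in the parental line. Here too 0 were at least 2-fold above every stable line, and the median was -0.02. Dusp1, a phosphatase of MAP kinases, had 759.5 in the parental line and 1217 to 1626 in the stable lines, and Nr4a1, a nuclear receptor, had 412 and 541 to 721. Egr1 and Fos, which encode transcription factors, overlapped at 3720.07 against 1084 to 4885 and 620.1 against 318 to 733.

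Receptors and channels of smooth muscle and markers of other cells were mostly dim or overlapped between lines. Of 17 measured receptor and channel genes 8 passed, with a median of 0.05. Prkg1, the cGMP-dependent kinase that relaxes smooth muscle, was lowest in the parental line at 112 against 184 to 560.2. Gucy1a1, a subunit of the nitric oxide receptor, overlapped at 315 against 131 to 341, while Kcnma1, a potassium channel, had 74.7 in the parental line against 26.4 to 72.3. Oxtr, the oxytocin receptor, was under the filter level in every line at 4.04 to 24.6. Of 20 fibroblast, pericyte and mesenchymal markers 6 passed. The summed signal of all 20 was 6004 in the parental line and 4741 to 5466 in the stable lines. Col1a1, Dcn and Pdgfrb, which did not pass, lay at 2.48 to 22.4, 4.52 to 17.8 and 7.57 to 41.6 over the 5 lines. Fn1 and Fbln1, which passed, were bright in every line, at 1971 to 2431 and 1671 to 2193. Col1a2 and Pdgfra also passed, at 27.9 to 61.3 and 51.5 to 115. S100a4 had the largest difference in that list, 1215 against 299.5 to 797, followed by Cd44 (38.1 against 3.64 to 14.8), Col5a1 (103 against 12.4 to 103) and Thy1 (35.0 against 7.39 to 21.0). Cd44 and Thy1 did not pass, and all their values were under the filter level.

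Of 24 skeletal and cardiac muscle markers 7 passed. The summed signal of all 24 was 4159 in the parental line and 3849 to 4639 in the stable lines. Tnnt2, cardiac troponin T, had 351 against 67.0 to 184. Tnnc1, the slow muscle and cardiac troponin C, had 83.9 against 148 to 286, and Myl2, a ventricular myosin light chain, 49.2 against 93.6 to 122. Myh7, the slow myosin heavy chain, did not pass, at 52.7 against 9.64 to 15.0. The skeletal muscle regulators Myod1 and Myog did not pass and lay at 5.37 to 69.99 and 15.4 to 26.5. Myh3 and Mylpf of the same list passed, at 2988 to 3671 and 147 to 233 over the 5 lines. The myosin heavy chain gene Myh3 made up the largest part of the summed signal in every line. Of 9 endothelial and blood markers 0 passed, and the summed signal of all 9 was 147 against 135 to 216. The largest difference was that of Pecam1, an endothelial adhesion molecule, at 4.598 against 31.8 to 50.5. The summed signal of 6 Schwann and glial markers was 238 against 423 to 595, and 2 of them passed. These were Erbb3, a receptor of neuregulins, at 124 against 248 to 391, and Mbp, myelin basic protein, at 70.1 against 78.7 to 98.4. Sox10, of the same list, did not pass and lay at 6.59 against 9.17 to 64.7. The part of these markers in the members' pattern was not tested. All 18 measured neuroblastoma markers summed to 83309 in the parental line and 80459 to 87276 in the stable lines. Among them Gata3 (554 against 95.3 to 585), Isl1 (1493 against 316 to 1998), Chga (3203 against 1511 to 2109) and the dim Th (68.6 against 22.1 to 38.1) differed most. On an array of bulk RNA, a smaller share of cells with a given gene and less RNA of it per cell cannot be told apart.

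**Figure D4:**
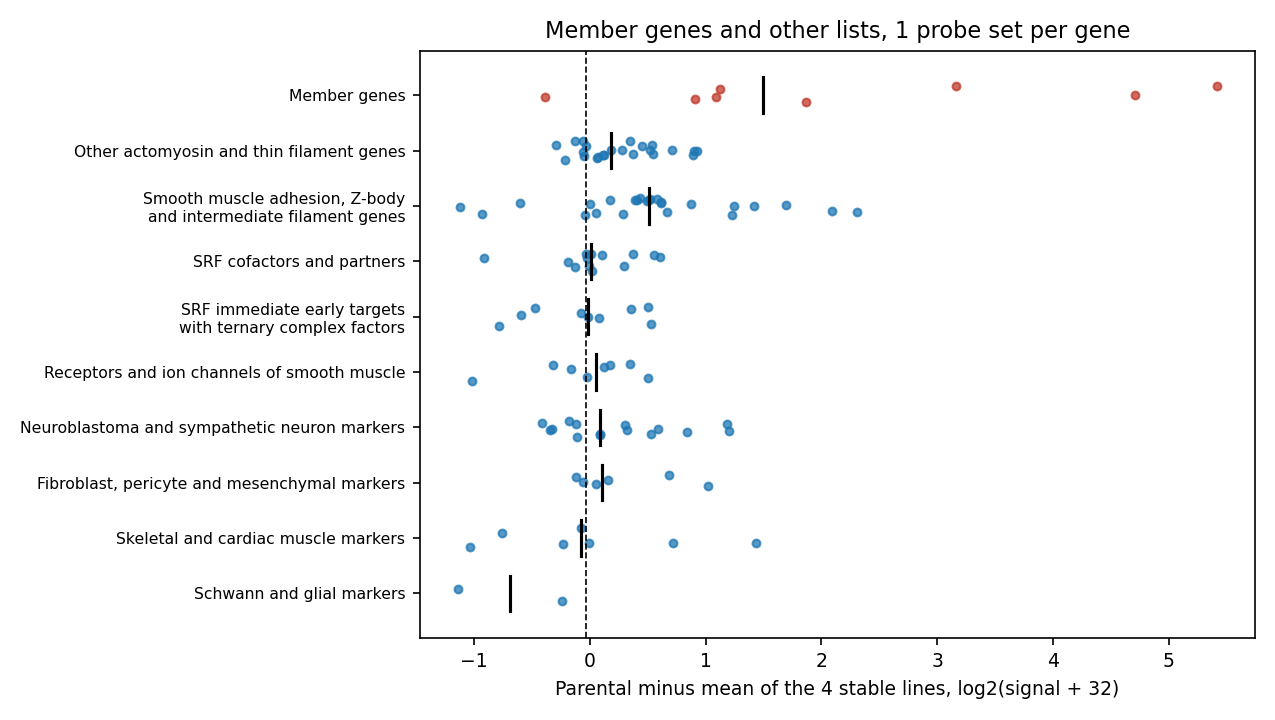
Parental line minus the mean of the 4 stable lines in log2(signal + 32) for each gene (points, 1 probe set per gene) of the 8 members that passed the filter and of the other lists. Black bars are list medians and the dashed line is the median of all genes, -0.04. The members' median is 1.496 and that of the adhesion, Z-body and intermediate filament genes 0.51. The endothelial and blood list has no gene past the filter and is not drawn.

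Whether the members differed among the stable lines is a question their choice did not use. The knockdown lines were compared with the vector lines by limma over all 22519 probe sets, with the parental array in the model as a group of its own. That array adds no residual spread, but it enters the mean level by which a probe set passes the filter and by which limma sets its prior variance. Kdm7a checked the labels. By 1456150_at it reached 487 in the parental cells, 611 and 665 with the vectors and 130.3 and 136 after knockdown. The log2 change was -2.26 (SE 0.18), with an adjusted p of 0.0366 in limma. It was lower in both knockdown lines by 2 further probe sets, and its other 2 were under the filter level. Over all probe sets limma called 1 higher (0.00444%), of Zdbf2, and 4 lower (0.0178%), of Kdm7a, Fst by 2 probe sets and Htr3a. When a line was left out the count ranged from 0 without knockdown line 2 and 1 without knockdown line 1 to 26 without the EGFP line and 105 without the empty vector line. In such a fit the arm left with 1 array is assumed to vary like the arm that still has 2. None of the 15 member probe sets passed in limma, with adjusted p from 0.530 to 0.994. The lowest value is that of Myl9, which passed the filter only through its parental signal, so it is not read. With the filter set on the 4 stable lines alone, 12 member probe sets were tested, and Myl9, Actg2 and Tpm1 1456623_at were not. None of the 12 passed (limma adjusted p from 0.892 to 0.995). Of the 12, 3 had an unadjusted p under 0.05, all of Tpm2, as did 5.42% of all probe sets under that filter. The median log2 change was 0.14 for the 12 and 0.01 for all.

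Tpm2 was higher in both knockdown lines than in both vector lines by its 3 bright probe sets, but it did not pass. By 1419738_a_at the signal was 2249 ± 281 (SD, n = 2) in the knockdown and 1554 ± 213 (SD, n = 2) in the vector lines. The log2 change was 0.53 (SE 0.15), with a limma adjusted p of 0.886. By 1425028_a_at the change was 0.64 (SE 0.15) and by 1449577_x_at 0.42 (SE 0.17). The 95% intervals were 0.18 to 0.89, 0.28 to 1.00 and 0.02 to 0.82, unadjusted for the number of probe sets tested. By the fourth probe set, 1419739_at, the change was -0.02 (SE 0.28). Both knockdown lines lay above both vector lines for 3 of the 12 member probe sets bright in the stable lines, all of Tpm2, and for 18.5% of all probe sets under that filter.

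Myl9 and Actg2 passed the brightness filter only through the parental signal that chose them, so no test of them is read. Their stable lines lay near or under the filter level, and both had lower signals in the knockdown than in the vector lines. For Myl9 the vector lines had 48.5 ± 11.9 (SD, n = 2) and the knockdown lines 6.11 ± 2.51 (SD, n = 2), a log2 difference of -3.03, or -1.07 with the offset of 32. For Actg2 they had 42.7 ± 17.6 (SD, n = 2) and 17.5 ± 6.69 (SD, n = 2), a difference of -1.27, or -0.58 with the offset. The limma SE of the Myl9 difference was 0.47 with the parental array in the fit and 0.76 without it. Both fits used the filter that the parental array enters. Acta2 1416454_s_at had -0.56 (SE 0.41), from knockdown line 2 at 39.3, and the change was 0.03 without that line.

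None of the other members passed, and several differences turned sign with the vector line used, those of Cnn2 and Tagln2 1439407_x_at among them. Without the empty vector line and without the EGFP line, Srf 1418255_s_at had changes of -0.07 and 0.19. In the same order Tpm1 1423721_at had 0.03 and -0.22. Tpm2 1419739_at had -0.20 and 0.17, and Tagln2 1426529_a_at had 0.28 and -0.04. Tpm1 1456623_at had -0.89 and 0.45, but it passed the filter only with the parental array in it, so no test of it is read. Cnn2 had 1537 ± 397 (SD, n = 2) in the knockdown and 1544 ± 1187 (SD, n = 2) in the vector lines (log2 change 0.22, SE 0.51). Its change was -0.66 without the empty vector line and 1.10 without the EGFP line, with limma adjusted p of 0.218 and 0.151. Srf had 0.06 (SE 0.18) by 1418255_s_at and 0.07 (SE 0.18) by 1418256_at, with 95% intervals of -0.37 to 0.49 and -0.35 to 0.48. Tpm1 had 0.17 (SE 0.18) by 1423049_a_at, -0.10 (SE 0.16) by 1423721_at and -0.22 (SE 0.54) by 1456623_at. Tagln2 had 0.12 (SE 0.12) by 1426529_a_at and 0.41 (SE 0.29) by 1439407_x_at. Without the empty vector line, which leaves the low EGFP line as the only vector line, the latter was 0.93 with an adjusted p of 0.00375 in limma, the one case in which a member passed. The residual spread of that fit comes from the 2 knockdown arrays alone, and the SE fell to 0.069. Without the EGFP line the change was -0.11. Over all alternatives its adjusted p ran from 0.00375 to 1.00. Of 108 genes of the other lists tested in the fit with every array 0 passed in limma. An unadjusted limma p under 0.05 was found for 16 of them. Of all 22519 probe sets in that fit 1238 had one, a smaller share than in the lists. The lists were chosen with earlier results of these data known, and the difference in share was not tested.

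**Figure D5:**
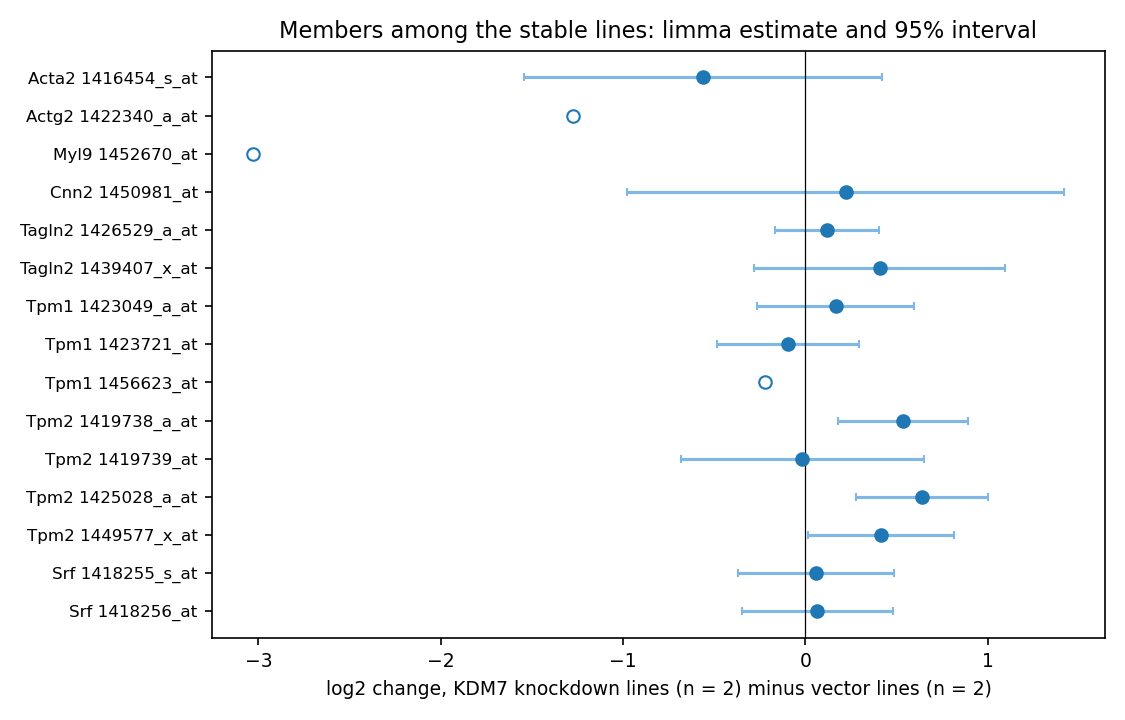
log2 change of the 15 member probe sets that passed the filter, knockdown lines (n = 2) minus vector lines (n = 2), with the 95% interval from limma, unadjusted for multiple tests. Open points, with no interval, are the 3 that a filter on the stable lines alone leaves out. The 3 bright Tpm2 probe sets lie above 0, and none passed the adjusted threshold.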

How the data were processed

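The deposited table holds 1 linear signal intensity per probe set and array, which the authors computed, per the submitters' processing notes, using MAS5 (version: not given in the sources used here). Biotin cRNA was hybridised, per the labels. The 2% trimmed mean was 500.0 on every array, so no further scaling was applied. After 64 controls were left out, log2 signals were used with no offset unless one is named. Symbols came from the platform annotation, and all 21 member probe sets carried a symbol that a GRCm38.p6 gene table also gives for that gene. A gene of a list is represented by its probe set of highest mean log2 signal.

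Differences were tested with limma 3.58.1 under R 4.3.3 (linear fit, then eBayes with trend), with 3 group means, 2 residual degrees of freedom and Benjamini-Hochberg adjustment at 0.05. The spread is that between these arrays, and 5 arrays limit the precision. No batch is labelled. Members, lists and tests were chosen with earlier results of these data known. Named are all members, the 10 genes most like them, up to 4 per list with the largest parental difference, and Kdm7a. Zdbf2, Fst, Htr3a, Actb, Actg1, Myh11, Lmod1, Mrtfa, Mrtfb, Myocd, Hand2, Phox2a and Stmn2 were chosen after their values were seen. So were Col1a1, Col1a2, Dcn, Fn1, Fbln1, Pdgfra, Pdgfrb, Flnc, Nexn, Synm, Myod1, Myog, Myh3, Mylpf, Nefl and Nefm. Alternatives were quantile normalization, median centring, cyclic loess, an offset of 32, other filters and variance models, a looser threshold of 0.10 and the omission of each array in turn.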

Additional observations from a re-analysis of the deposited data

How the results depend on the processing

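The count of member probe sets past the adjusted threshold stayed at 0 under all alternatives run, except that leaving out lines gave 0 to 1. The count over all probe sets, 5, was 0 after quantile normalization, with a filter at percentile 70 and without trend, where 1246, 745 and 1317 had an unadjusted p under 0.05 in limma, and 0 to 105 when a line was left out. Of 202 member log2 changes under alternatives 13 turned sign, none past the threshold. Over the alternatives 11 to 12 member probe sets were highest in the parental line and 7 to 9 at least 2-fold above every stable line. Median centring moved the median parental difference of all probe sets from -0.05 to 0.14, and Srf 1418255_s_at from 0.95 to 1.14 with it. Tpm1 1456623_at had a parental difference of 0.16, or -0.02 without the empty vector line. The filter on the stable lines left out Myl9, Actg2 and Tpm1 1456623_at. No paired analysis was possible because the labels give no pairing between the lines.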

Other observations

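Of the 20 probe sets with the largest parental excess over every stable line, 6 had no symbol or several and were left out of the ranking of genes. Probe set 1431429_a_at, with no symbol, had a signal of 659 in the parental line and 93.8 to 111 in the stable lines. Probe set 1422607_at, annotated to several genes, had 1513 against 129 to 334.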
